A study of Mus musculus with 6 samples.

Results

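Calpains and lysosomal cathepsins are the intracellular proteases that work beside the proteasome in skeletal muscle, and their mRNA was examined here through 10 genes picked by symbol from the 55995 features of the expression table. The 10 are the calpain genes Capn1, Capn2 and Capn3, the small subunit gene Capns1, the inhibitor gene Cast, and the cathepsin genes Ctsb, Ctsd, Ctsl, Ctsk and Ctss. All 10 symbols matched 1 row each. Of these, 9 had a mean of at least 1 TPM and were tested, while Ctsk lay under that level and is given as values only. TPM counts a gene's transcripts relative to all transcripts of the library, corrected for length, so levels can be set beside each other between genes.

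Calpains are calcium-activated cysteine proteases of the cytosol that cut proteins at limited sites rather than degrading them whole. In muscle they are known for releasing proteins from the sarcomere and the membrane skeleton. Cathepsins are proteases of the lysosome, which digests what autophagy and endocytosis deliver, and cathepsin L mRNA is widely used as a marker of muscle wasting.

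The muscle was the gastrocnemius, a mainly fast-twitch muscle of the calf. The mice were NOD/SCID/IL2Rγ-null (NSG), a strain without mature lymphocytes that still has macrophages and neutrophils. Both groups carried a tumour under the skin of the left flank, grown from wild-type (WT) cells of the human breast cancer line MDA-MB-231 injected with Matrigel. For radiotherapy, the tumour was given a single dose of 10 Gy (6 MV X-rays, 6 Gy/min) once it measured about 800 mm3, and the muscle of the other leg was taken after 3 days. Control mice received no radiation. The age of the mice, and the tumour size and sampling day of the controls, were not in the sources used here. Each group had 3 libraries, and nothing in the labels ties a library to a mouse of its own, so the spread between libraries may be technical. The comparison asks how a muscle outside the beam differs after the tumour has been irradiated.

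The 12 muscle fibre markers had a summed level of 139940 to 162198 TPM in control libraries. After radiotherapy the sum was 210825, 213408 and 122365 TPM in replicates 1, 2 and 3. Above every control were 8 of 12 markers in replicate 1 and 7 of 12 in replicate 2, beside 10.0% and 8.44% of all features. In replicate 3, 7 of 12 were below every control and 0 above. Radiotherapy replicate 3 stood apart from the rest of its group. Over all tested features its log2 levels had a Pearson correlation of 0.850 and 0.851 with radiotherapy replicates 1 and 2, which had 0.968 with each other, while the controls had 0.938 to 0.950 among themselves. Markers of other cells differed in it list by list. Of all features, 31.5% were above and 30.9% below every control in this library. Neutrophil markers summed to 2989 TPM against 11.1 to 187 TPM in the other 5 libraries, with 9 of 9 tested markers above every control. Macrophage markers summed to 551 against 81.2 to 295 TPM (6 of 14 above and 0 below every control). Endothelial markers summed to 263 against 99.4 to 150 TPM (4 of 7 above and 2 of 7 below every control). The fibroblast and tendon markers instead had their lowest sum in it, 105 against 120 to 196 TPM (3 of 9 above and 4 of 9 below every control). Most of that sum of 105 TPM was Dcn (76.3 TPM). The satellite cell sum of 79.4 against 11.3 to 44.4 TPM came mostly from Sdc4 (61.9 TPM). Of the 3 tested, 1 was above and 1 below every control. The adipocyte sum of 804 against 313 to 654 TPM came mostly from Fabp4 (587 TPM). Of the 5 tested, 1 (Fabp4) was above and 1 (Adipoq, 1.65 TPM) below every control. Their part in the results was not tested, and results are given for every library, with and without this one. In bulk muscle, fewer cells of a type and less RNA per cell cannot be told apart.

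No member passed the test between the groups. With limma on log2(TPM + 1), 0 of 9 tested members passed an adjusted p of 0.05, beside 0.0586% of all 11938 tested features (0.0419% higher, 0.0168% lower). At an unadjusted p under 0.05 there were also 0 of 9, beside 14.4% of all features (1.18% higher, 13.3% lower). The control and radiotherapy groups overlapped for all 10 members, while they did not overlap in 21.0% of all features. For Capn2, Capn3, Cast, Ctsb, Ctsd and Ctsl the radiotherapy libraries instead lay on both sides of the controls. Of the 9 tested members, 6 were below every control library in radiotherapy replicate 1, beside 63.2% of all features, and 6 in radiotherapy replicate 2, beside 67.6%. In radiotherapy replicate 3, 6 of 9 were above every control library, beside 31.5% of all features, and 6 of 9 had their highest level of all 6 libraries, beside 30.0%. Capn3 alone among the tested members had the reverse pattern, above every control in replicates 1 and 2 and below every control in replicate 3. Levels above every control were found in 10.0% and 8.44% of all features in replicates 1 and 2, and levels below every control in 30.9% in replicate 3.

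**Figure D1:**
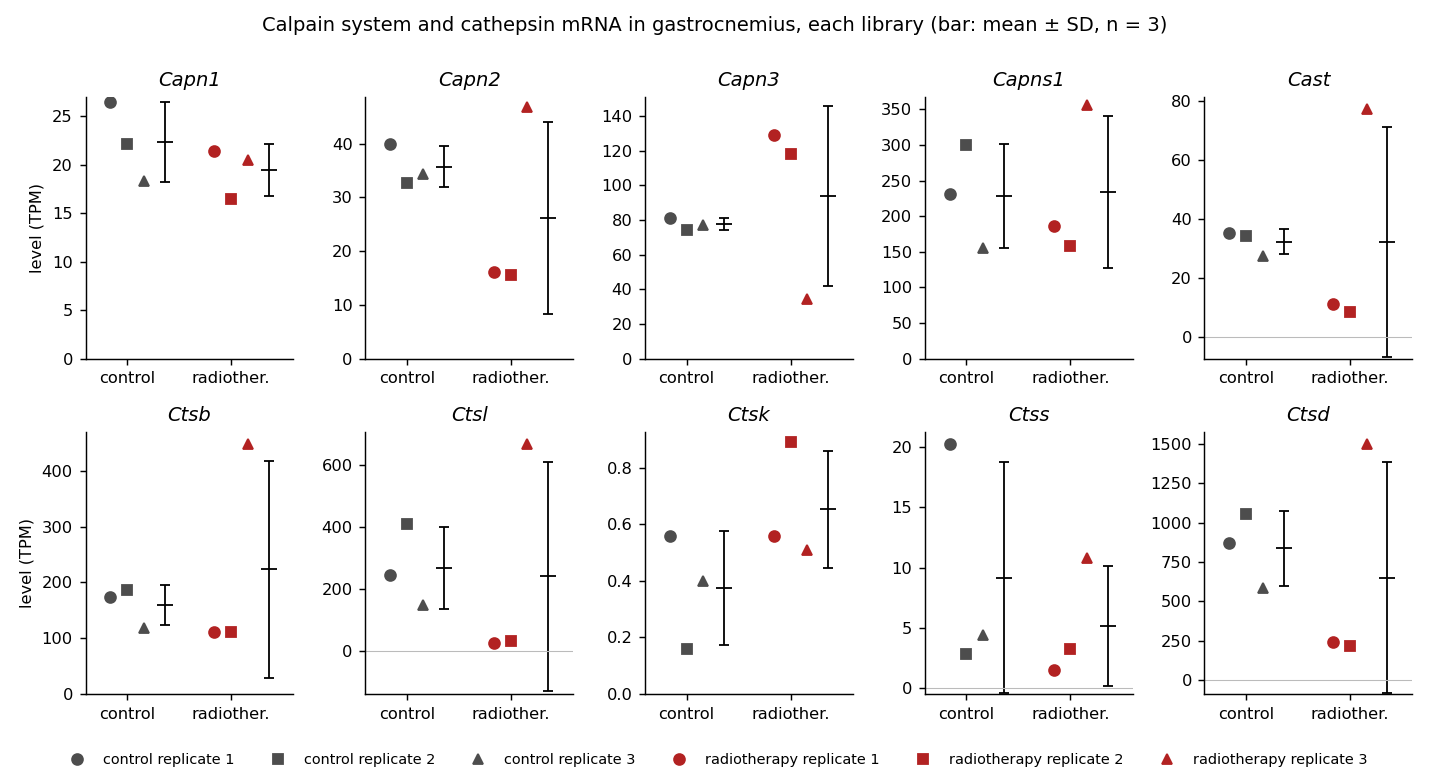
Level (TPM, linear axes) of the 10 genes in each of 3 control (grey) and 3 radiotherapy (red) libraries, with the group mean ± SD (n = 3) in black. Radiotherapy replicate 3 (red triangle) is the highest library for Ctsl (667 TPM), Ctsd (1495 TPM) and Cast (77.4 TPM) and the lowest for Capn3 (34.4 TPM).

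The widest range was that of Ctsl (ENSMUSG00000021477), which encodes cathepsin L, a cysteine endopeptidase of the lysosome. Ctsl was at 246, 408 and 147 TPM in control libraries 1, 2 and 3, and after radiotherapy at 23.5, 30.3 and 667 TPM in replicates 1, 2 and 3. The control mean was 11.4 and 8.82 times the level of radiotherapy replicates 1 and 2, while replicate 3 was at 2.50 times the control mean. The highest radiotherapy library was 28.4 times the lowest, against 2.77 times in control. The group means, 267 ± 132 and 240 ± 370 TPM (SD, n = 3 per group), were close beside that spread. The fitted log2 difference was -1.62 (SE 1.22), with a limma adjusted p = 0.522.

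Ctsd (ENSMUSG00000007891) encodes cathepsin D, the main aspartic protease of the lysosome, and was the most abundant member in every library. It was at 870, 1057 and 584 TPM in the controls and at 241, 218 and 1495 TPM after radiotherapy. Radiotherapy replicates 1 and 2 lay below every control, replicate 3 above. On the log2 scale the change was -0.92 (SE 0.74), with a limma adjusted p = 0.532.

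Ctsb (ENSMUSG00000021939) encodes cathepsin B, a lysosomal cysteine protease that also trims peptides from their carboxyl end. It was at 173, 186 and 118 TPM in the controls and at 111, 110 and 448 TPM after radiotherapy. Radiotherapy replicates 1 and 2 lay just under the lowest control, and replicate 3 was at 2.82 times the control mean, the largest excess of that library among the members. The log2 change was 0.18 (SE 0.58), with a limma adjusted p = 0.888, and it turned to -0.02 without control replicate 3 and to -0.50 without radiotherapy replicate 3.

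The makeup of the cathepsin mRNA differed between libraries. Of the summed TPM of the 5 cathepsins, Ctsd made up 63.9% to 68.4% in control and 57.0% to 63.9% after radiotherapy. Ctsl made up 18.8%, 24.7% and 17.3% in control and 6.22%, 8.36% and 25.4% in radiotherapy replicates 1, 2 and 3. Ctsb made up 11.2% to 13.8% in control and 29.4%, 30.4% and 17.1% after radiotherapy. The summed level itself was 1310, 1655 and 854 TPM in the controls and 377, 363 and 2622 TPM after radiotherapy, so the sum too was lowest in radiotherapy replicates 1 and 2 and highest in replicate 3.

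Both Ctsd and Ctsl carry a short motif of interest before their start, shown here because these genes, with Ctss between them, had the widest range of the cathepsins over the radiotherapy libraries. The motif CACGTG, the E-box core read by the lysosomal regulator TFEB and by many other factors, was searched on both strands in windows of 250 bases before and 50 after each start in RefSeq (GRCm38.p6). It was found in 7.15% of all 32851 windows, and the longer TCACGTG, which contains it, in 3.77%. Of the members, 9 had a window, with 14 windows in all, while Ctsb had none and was not searched. Among the 9, CACGTG was in the windows of Ctsd and Ctsl only, which is 2 of the 14 windows. TCACGTG was in 1 of the 14, that of Ctsd. The forkhead motif GTAAACA was in 3.65% of all windows and in 0 of the 14. Capitals mark the matches. The Ctsd stretch, chr7:142387898-142388077 on the minus strand, holds CACGTG at 2 sites, and both sites also match the longer motif. The Ctsl stretch is chr13:64370711-64370770 on the minus strand and holds 1 match.
Ctsd: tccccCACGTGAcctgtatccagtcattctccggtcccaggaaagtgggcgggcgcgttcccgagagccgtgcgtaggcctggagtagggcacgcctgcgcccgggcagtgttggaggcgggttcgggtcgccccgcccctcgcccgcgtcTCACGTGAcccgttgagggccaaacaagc
Ctsl: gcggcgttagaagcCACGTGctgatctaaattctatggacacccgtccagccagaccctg
A match is a description of these letters and does not show that a factor binds there.

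Ctss and Ctsk are the cathepsins of particular cell types. Ctss (ENSMUSG00000038642) encodes cathepsin S, which processes the invariant chain in antigen-presenting cells and is abundant in macrophages. It was at 20.2, 2.86 and 4.39 TPM in the controls and at 1.47, 3.22 and 10.8 TPM after radiotherapy. Control replicate 1 was the highest library and radiotherapy replicate 1 the lowest, so the order differed from that of Ctsl and Ctsd. The fitted log2 difference was -0.61 (SE 0.78), with a limma adjusted p = 0.696, and it became 0.13 without control replicate 1. The 15 macrophage markers, 14 of them tested and 0 past the threshold, summed to 295, 91.9 and 176 TPM in the controls and to 81.2, 134 and 551 TPM after radiotherapy. The markers did not share 1 order of libraries, as these examples chosen after their values were seen show. Adgre1 was at 3.41, 0.400 and 0.850 TPM and at 0.080, 0.370 and 2.20 TPM, highest in control replicate 1 like Ctss. C1qa, C1qb, C1qc, Fcgr1 and Aif1 were also highest in control replicate 1, and Mrc1 and Cd163 in control replicate 3. Cd68 was at 14.8, 4.84 and 6.79 TPM and at 6.53, 8.49 and 121 TPM, and Cd68, Cd14, Lyz2, Tyrobp, Csf1r, Laptm5 and Ptprc were highest in radiotherapy replicate 3. The genes whose log2 pattern over the 6 libraries lay closest to that of Ctss were Ms4a6c and Clec4a1, both myeloid surface genes. Their root-mean-square difference from it, after each gene was centred on its own mean, was 0.18 and 0.20, beside a spread of 1.05 for Ctss itself. The part of macrophage content in the Ctss values was not tested.

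**Figure D2:**
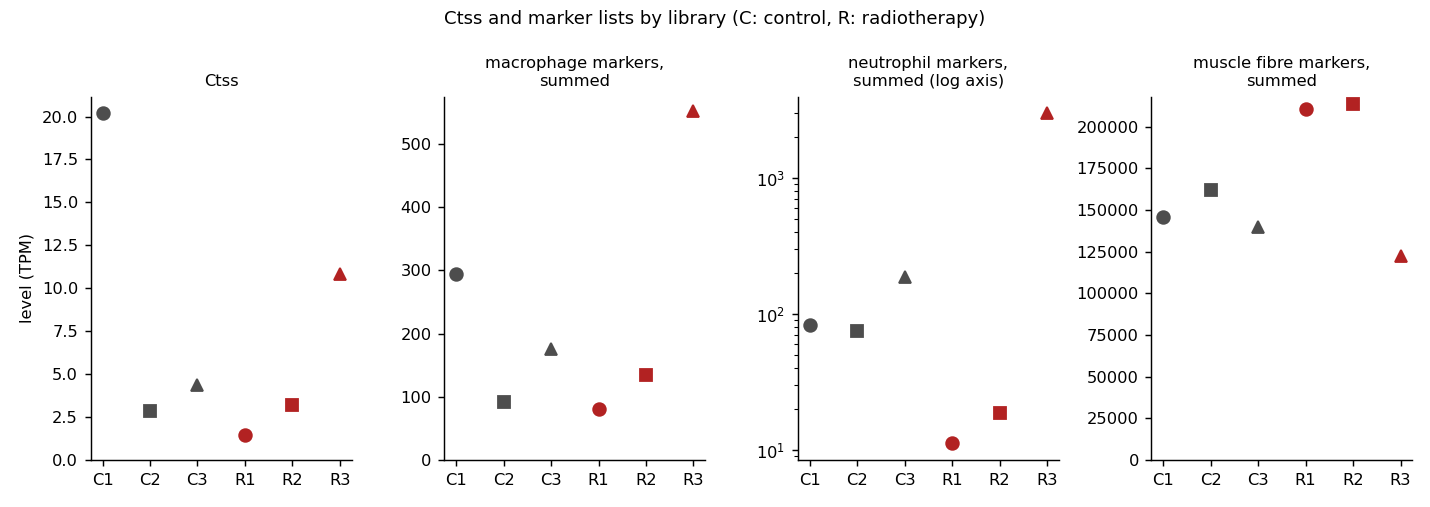
Level (TPM) of Ctss and the summed level of the macrophage, neutrophil and muscle fibre markers in control (C1 to C3) and radiotherapy (R1 to R3) libraries, on linear axes except for neutrophil markers, which are on a log axis. Ctss is highest in control replicate 1 (20.2 TPM), while the neutrophil sum is 2989 TPM in radiotherapy replicate 3 and at most 187 TPM in any other library.

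Ctsk (ENSMUSG00000028111) encodes cathepsin K, the collagen-cutting protease of osteoclasts that fibroblasts also make. It was at 0.560, 0.160 and 0.400 TPM in the controls and at 0.560, 0.890 and 0.510 TPM after radiotherapy, the lowest level of any member in every library. The groups overlapped, and the untested log2(TPM + 1) difference was 0.27. Of 9 osteoclast and bone markers, Bglap and Sp7 were listed at 0 in every library. Acp5, the 1 tested, was at 9.93, 1.12 and 1.73 TPM in the controls and 2.11, 2.22 and 15.0 TPM after radiotherapy, above every control in replicate 3. The 11 fibroblast and tendon markers, 9 of them tested and 0 past the threshold, summed to 169, 120 and 190 TPM in the controls and to 196, 196 and 105 TPM after radiotherapy. Dcn, the most abundant of them, was at 97.4 to 155 TPM in the controls and at 88.7, 102 and 76.3 TPM after radiotherapy. Above every control were 7 of 9 in replicate 1 and 6 of 9 in replicate 2, beside 10.0% and 8.44% of all features. Below every control were 1 of 9 and 0 of 9, beside 63.2% and 67.6%. Of the 9, 2 were above every control in all 3 radiotherapy libraries, a pattern of 1.73% of all features. The part of these cells in the Ctsk values was not tested.

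The conventional calpains are dimers of a catalytic and a regulatory subunit. Capn1 (ENSMUSG00000024942), the catalytic subunit of calpain 1, was the steadiest member. It was at 26.5, 22.1 and 18.3 TPM in the controls and at 21.4, 16.5 and 20.5 TPM after radiotherapy. All libraries lay within a narrow band, and only radiotherapy replicate 2 was outside the control range. On the log2 scale the change was -0.18 (SE 0.27), with a limma adjusted p = 0.740, and it turned to 0.23 with median-of-ratios scaling.

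Capn2 (ENSMUSG00000026509), the catalytic subunit of calpain 2, was at 40.0, 32.7 and 34.4 TPM in the controls and at 16.1, 15.6 and 46.9 TPM after radiotherapy. The controls were close together, with radiotherapy replicates 1 and 2 below them and replicate 3 above. The log2 change was -0.62 (SE 0.45), with a limma adjusted p = 0.510.

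Capns1 (ENSMUSG00000001794), the regulatory subunit that both dimers share, was far more abundant than either partner, at 231, 300 and 155 TPM in the controls and 187, 158 and 356 TPM after radiotherapy. Radiotherapy replicates 1 and 2 lay inside the control range. The fitted log2 difference was -0.01 (SE 0.41), with a limma adjusted p = 0.992, and it turned to 0.42 with median-of-ratios scaling. Summed over Capn1 and Capn2, the catalytic mRNA was outnumbered by Capns1 by 2.94 to 5.48 times in control and by 4.92 to 5.29 times after radiotherapy.

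Cast (ENSMUSG00000021585) encodes calpastatin, the specific protein inhibitor of calpains 1 and 2. It was at 35.3, 34.3 and 27.6 TPM in the controls and at 11.1, 8.47 and 77.4 TPM after radiotherapy. The range over the radiotherapy libraries was 9.14 times, against 1.28 times over the controls. On the log2 scale the change was -0.68 (SE 0.77), with a limma adjusted p = 0.657. The inhibitor had the widest range of the 5 genes of the calpain system, and its ratio to Capn1 and Capn2 together was 0.530, 0.626 and 0.523 in control and 0.295, 0.264 and 1.15 in radiotherapy replicates 1, 2 and 3.

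Capn3 (ENSMUSG00000079110) encodes calpain 3, a muscle-specific calpain held on titin that needs no small subunit and whose loss causes limb-girdle muscular dystrophy. It was the most abundant catalytic calpain in every control library and in radiotherapy replicates 1 and 2. The gene was at 81.0, 74.2 and 77.1 TPM in control, the tightest group of any member, and at 129, 118 and 34.4 TPM after radiotherapy. Radiotherapy replicates 1 and 2 lay above every control and replicate 3 at 0.444 of the control mean. The log2 change was 0.06 (SE 0.51), with a limma adjusted p = 0.955, and it turned to -0.27 and -0.21 without radiotherapy replicates 1 and 2. Capn3 made up 54.9% to 59.4% of the summed TPM of the 3 catalytic calpains in control, 77.5% and 78.6% in radiotherapy replicates 1 and 2, and 33.8% in replicate 3, where Capn2 held the largest share at 46.0%. The summed muscle fibre markers were likewise above the controls in replicates 1 and 2 and below them in replicate 3. Not every marker was: 8 of 12 were above every control in replicate 1 and 7 of 12 in replicate 2, beside 10.0% and 8.44% of all features. In replicate 3, 7 of 12 were below every control, beside 30.9% of all features. The part of these markers in the Capn3 values was not tested.

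**Figure D3:**
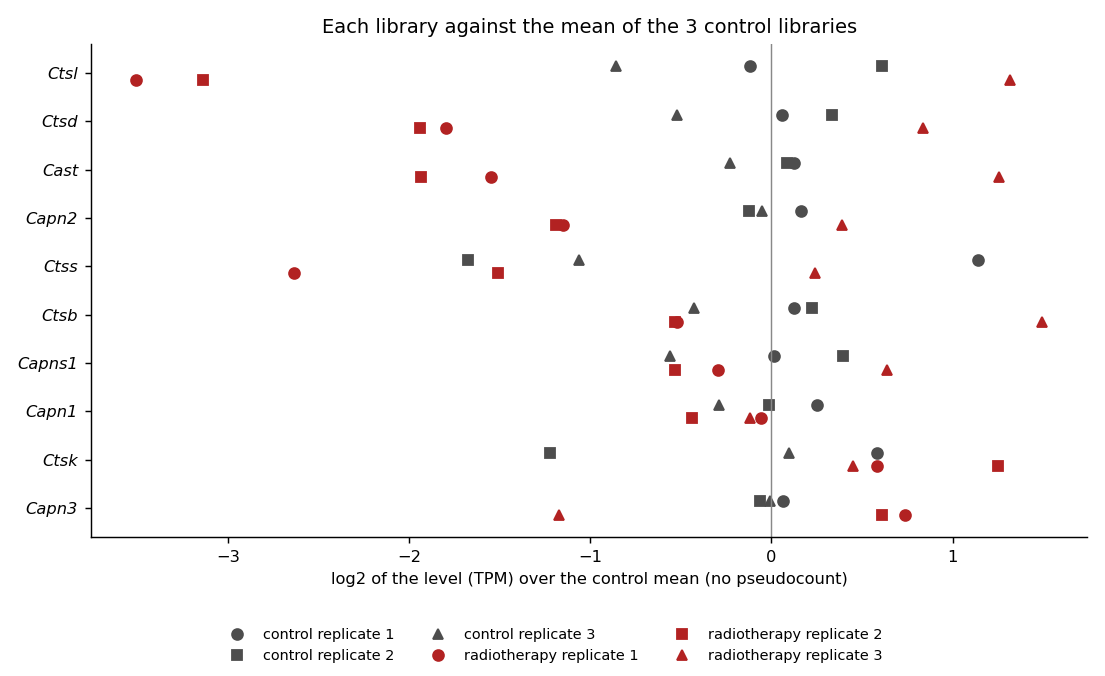
Log2 of each library's level over the mean of the 3 control libraries, with no pseudocount, for the 10 genes, control in grey and radiotherapy in red. Radiotherapy replicates 1 and 2 lie left of every control for Ctsl, Ctsd, Cast, Capn2 and Ctsb and right of them for Capn3, and replicate 3 lies on the opposite side in each case.

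Ratios between members within a library do not depend on how libraries are scaled to each other. Capn2 to Capn1 was 1.51, 1.48 and 1.88 in control and 0.750, 0.950 and 2.28 after radiotherapy, so Capn1 exceeded Capn2 only in radiotherapy replicates 1 and 2. Capn3 to the sum of Capn1 and Capn2 was 1.22, 1.35 and 1.46 in control and 3.44, 3.68 and 0.510 after radiotherapy. Ctsl to Ctsb was 1.42, 2.20 and 1.25 in control and 0.212, 0.275 and 1.49 after radiotherapy. That ratio put radiotherapy replicate 3 inside the control range, although both genes were highest in it. Ctsl to Ctsd was 0.283, 0.386 and 0.252 in control and 0.0975, 0.139 and 0.446 after radiotherapy. Over 8 ratios compared, the groups overlapped in each, and the two-sided exact permutation p-values ran from 0.3 for Ctsl to Ctsb to 0.8 for Cast to Capn1 and Capn2, with Benjamini-Hochberg adjusted values of 0.64 to 0.8. With 3 libraries against 3 this test cannot go below 0.1.

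**Figure D4:**
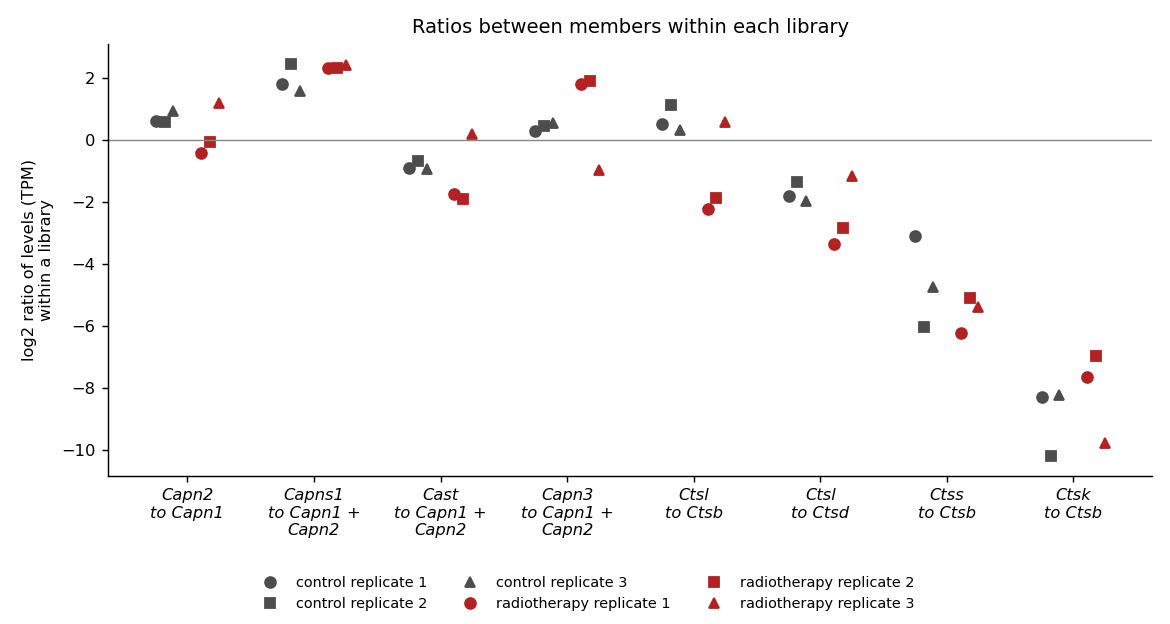
Log2 ratio of the TPM of members within each library for the 8 ratios compared, control in grey and radiotherapy in red. The Capn3 ratio of radiotherapy replicates 1 and 2 (3.44 and 3.68 before the log) lies above the controls and that of replicate 3 (0.510) below, and the groups overlap in all 8.

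Without radiotherapy replicate 3, 5 of the 9 tested members passed, beside 29.6% of all features. Capn2 fell by 1.12 (SE 0.17), Cast by 1.64 (SE 0.21), Ctsd by 1.82 (SE 0.28) and Ctsl by 3.16 (SE 0.43) on the log2 scale, with limma adjusted p-values of 0.0143, 0.0123, 0.0140 and 0.0128. Capn3 rose by 0.67 (SE 0.16, limma adjusted p = 0.0304). In this setting 27.6% of all features passed as lower and 1.98% as higher, and the median log2 change of all features was -0.57, so 4 of 9 lower is to be read beside that share. Relative to that median, Ctsl was at -2.59, Ctsd at -1.25, Cast at -1.07 and Capn2 at -0.55, and Capn3 at 1.23. Capn1, Capns1, Ctsb and Ctss did not pass, at -0.22 (SE 0.23), -0.36 (SE 0.30), -0.50 (SE 0.24) and -1.24 (SE 0.75). Leaving out any other single library gave 0 calls among the members. With all 6 libraries the median log2 change was -0.61 for the 9 tested members and -0.36 for all features, and 7 of the 9 were below 0, beside 78.5% of all features.

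**Figure D5:**
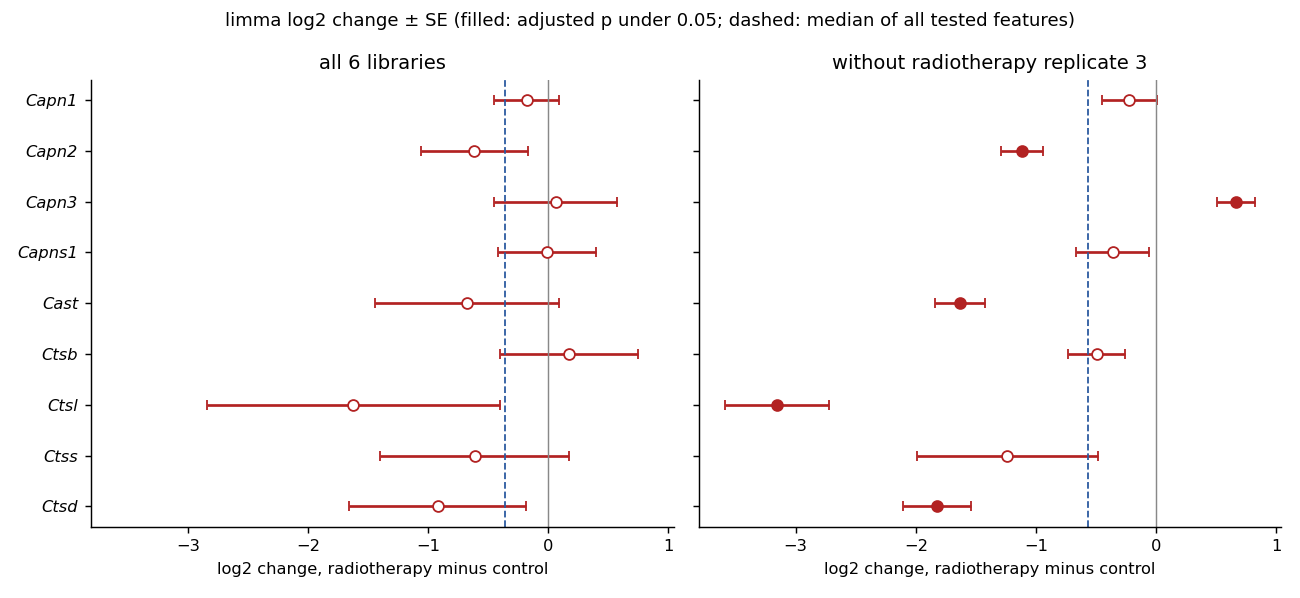
Log2 change (radiotherapy minus control) ± SE from limma for the 9 tested genes, with all 6 libraries (left) and without radiotherapy replicate 3 (right); filled points passed an adjusted p of 0.05 and the dashed line is the median of all tested features. No point is filled on the left, and on the right Capn2, Cast, Ctsl and Ctsd are filled below 0 and Capn3 above 0.

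The genes around these proteases were followed in 5 lists with 50 tested members, of which 0 passed the limma test in either direction and 9 had an unadjusted p under 0.05, all lower, beside 13.3% lower and 1.18% higher of all features. Leaving out radiotherapy replicate 3 gave 20 of the 50 lower and 0 higher, where the shares of all features were 27.6% and 1.98%.

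Of the other calpains, 3 of 11 were tested, 0 passed, and the median log2 change was -0.56, beside -0.36 for all features. Capn7, a calpain linked to endosomal sorting, was at 17.2, 10.11 and 19.7 TPM in control libraries and after radiotherapy at 10.08, 7.75 and 8.62 TPM, all 3 below every control. All 3 radiotherapy libraries were below every control in 19.3% of all features. Capn10 was at 3.50 to 3.75 TPM in the controls and at 1.54, 1.34 and 4.33 TPM after radiotherapy, the split also seen in Capn2. Capn15 was at 1.28 to 4.10 and 1.46 to 2.79 TPM. The digestive tract calpains Capn8 and Capn9 were listed at 0 in every library.

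Of 11 other lysosomal proteases, 9 were tested, 0 passed, and 3 lay below every control in all 3 radiotherapy libraries, beside 19.3% of all features. The median log2 change of the 9 was -0.02, beside -0.36 for all features. These 3 were Ctsf, Tpp1 and Ctsa. Below every control were 5 of 9 in radiotherapy replicate 1 and 5 of 9 in replicate 2, beside 63.2% and 67.6% of all features. In replicate 3, 4 of 9 were above and 3 of 9 below every control, beside 31.5% and 30.9%. Ctsf, a cysteine cathepsin, was at 34.2, 23.9 and 32.2 TPM in the controls and at 11.6, 14.2 and 17.6 TPM after radiotherapy, with a log2 change of -1.01 (limma adjusted p = 0.283). Unlike Ctsl, it was not high in radiotherapy replicate 3. Tpp1, a tripeptidyl peptidase, was at 14.9 to 19.7 and 9.25 to 14.2 TPM, and Ctsa, a carboxypeptidase that also stabilises lysosomal glycosidases, at 44.8 to 66.6 and 31.2 to 44.5 TPM. Ctse, an aspartic protease of endosomes, was at 0.310 to 0.760 TPM in the controls and at 0.610, 0.450 and 3.96 TPM after radiotherapy.

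Among inhibitors of cysteine proteases, listed together with the serpins Serpinb6a and Serpina3n, 8 of 10 found were tested and 0 passed. All 8 were above every control in radiotherapy replicate 3, beside 31.5% of all features. The median log2 change of the 8 was 0.05, beside -0.36 for all features. Serpinb6a, an intracellular serpin, was at 304 to 382 TPM in the controls and at 174, 209 and 482 TPM after radiotherapy. The stefin genes Stfa2, Stfa2l1 and Stfa3, small cathepsin inhibitors of neutrophils, were at most 1.55 TPM in the controls and at most 0.180 TPM in replicates 1 and 2 after radiotherapy, but 35.6, 63.1 and 14.6 TPM in replicate 3. Stefin genes are near-identical copies whose reads the counting may divide among them, so their single values are uncertain. The neutrophil markers moved with them, summing to 2989 TPM in replicate 3 against 11.1 and 18.7 TPM in replicates 1 and 2 and 74.7 to 187 TPM in control. Of the 9 tested neutrophil markers, 9 were above every control in replicate 3. Neutrophil content as a part of the stefin and cathepsin values was not tested.

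A list of 15 held genes that carry enzymes to the lysosome or build its membrane, and regulators of lysosomal genes such as Tfeb and Zkscan3. Below every control were 13 of 15 in radiotherapy replicate 1 and 13 of 15 in replicate 2, beside 63.2% and 67.6% of all features. Of the 15, 0 passed, and the median log2 change was -0.43, beside -0.36 for all features. In all 3 radiotherapy libraries 4 of 15 were below every control, beside 19.3% of all features. Lamp2, the membrane receptor of chaperone-mediated autophagy, was at 30.8 to 43.7 TPM in the controls and at 9.48, 10.5 and 28.8 TPM after radiotherapy. Scarb2, the receptor that brings glucocerebrosidase to the lysosome, was at 18.7 to 25.9 and 9.96 to 12.2 TPM. Gnptg, a subunit of the enzyme that makes the mannose 6-phosphate tag of lysosomal enzymes, was at 23.6 to 35.3 and 11.6 to 17.7 TPM, and Zkscan3, a repressor of lysosomal genes, at 5.76 to 9.20 and 3.93 to 5.21 TPM. Tfeb, the activator of many lysosomal genes, chosen after its values were seen, was at 52.8 to 64.2 TPM in the controls and at 44.7, 41.6 and 64.7 TPM after radiotherapy.

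Of 15 sarcomere and membrane genes listed as possible partners or substrates of calpains, 0 passed, and 4 lay below every control in all 3 radiotherapy libraries, beside 19.3% of all features. Their median log2 change was -0.35, beside -0.36 for all features. Below every control were 9 of 15 in radiotherapy replicate 1 and 11 of 15 in replicate 2, beside 63.2% and 67.6% of all features. In replicate 3, 8 of 15 were above and 7 of 15 below every control, beside 31.5% and 30.9%. Neb, the thin filament protein nebulin, was at 823 to 1260 TPM in the controls and 425 to 568 TPM after radiotherapy. Mylk2, the skeletal myosin light chain kinase, was at 605 to 941 and 299 to 564 TPM, Cmya5, the large muscle protein myospryn, at 541 to 754 and 392 to 417 TPM, and the glycolytic enzyme Aldoa at 25910 to 32412 and 20765 to 22643 TPM. Ttn, the titin on which calpain 3 sits, chosen after its values were seen, was at 197, 121 and 161 TPM in the controls and at 150, 148 and 111 TPM after radiotherapy, and its groups overlapped.

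The genes nearest in pattern to single members were taken from all named tested features by the same root-mean-square difference of centred log2(TPM + 1) over 6 libraries. Nearest to Ctsl were Eif4ebp1, a repressor of translation initiation, at 0.12, and Mt2, a metallothionein, at 0.26, beside a spread of 1.79 for Ctsl itself. Eif4ebp1 was at 374, 741 and 292 TPM in the controls and at 41.4, 55.6 and 1247 TPM after radiotherapy, the same order of libraries as Ctsl. Nearest to Capn3 were Aamdc at 0.08 and Tppp3 at 0.14, beside 0.61 for Capn3, with Aamdc at 104 to 124 TPM in the controls and at 178, 186 and 48.8 TPM after radiotherapy. Nearest to Cast were Rras2, a small GTPase, at 0.06 and Shb at 0.10, beside 1.03 for Cast. These distances rest on 6 libraries, of which 1 stands apart, and are given with no test.

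Some members share exon sequence with another gene in the GENCODE M21 annotation (GRCm38). Ctsb overlaps Fdft1 on the opposite strand by up to 774 bases, and Fdft1 was at 37.6 to 49.2 TPM in the controls and at 15.8, 16.9 and 55.3 TPM after radiotherapy. Cast overlaps Erap1 on the opposite strand, which was at 0.930 to 4.68 TPM over the 6 libraries, and Capn3 overlaps Ganc on the same strand, at 1.95 to 9.52 TPM. Ctsd overlaps Gm49369 on the same strand, which was at 27.7, 2.68 and 0 TPM in the controls and at 0.440, 0.170 and 1.64 TPM after radiotherapy. The sources used here do not say whether counting used strand, so reads in these stretches cannot be assigned with certainty.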

How the data were processed

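TPM values of the 6 libraries come from 1 table that the authors deposited. Per the labels' protocols, total RNA went into TruSeq libraries. The submitters' processing notes name HISAT2, StringTie, RSEM and the build mm9, with no version or role. Which annotation was used is not stated there. Without read counts the depth is unknown and a count model could not be used, so precision rests on the spread of 3 libraries per group.

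The 11938 of 55995 features whose mean reached 1 TPM were tested as log2(TPM + 1) with limma 3.58.1 in R 4.3.3 (empirical Bayes with a trend, two-sided, no covariates), adjusted by Benjamini-Hochberg over all of them, at a threshold of 0.05. Changes are radiotherapy minus control, on the log2(TPM + 1) scale, which understates changes of low genes. The members and lists were chosen with earlier results of these data known. All 10 members, up to 4 members per pathway list with the smallest p, and the 2 nearest patterns of up to 4 members were to be named. The table held 138 of the 139 genes listed. Where a symbol had several rows, the one with the highest mean was used. The fit was checked on simulated data with independent noise in each library. No simulated library stood apart from its group, so that case was not checked. Promoter sequences came from RefSeq (GRCm38.p6), and protein sequences were not used here. Figures used matplotlib 3.10.9. The labels state no pairs, so the replicate numbers were not taken as pairs. Same-numbered libraries had correlations of deviations from their group means of -0.05, -0.11 and -0.20. With radiotherapy replicate 3 apart from its group, these values cannot tell whether libraries were paired.

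Other settings tried were pseudocounts of 0.1 and 0.5; a minimum mean of 5 TPM or no minimum; scaling by median-of-ratios, by quantile normalisation, or to a common sum that leaves out mitochondrial genes and the 20 most abundant; empirical Bayes without a trend or in its robust form; a replicate block; a pseudocount of 1 on each term of a ratio; and leaving out each library.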

Additional observations from a re-analysis of the deposited data

How the results depend on the processing

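With each setting that kept all 6 libraries, 0 members passed in either direction, and with the replicate block also 0. The log2 change of Capn1 turned from -0.18 to 0.23, 0.018 and 0.23, and that of Capns1 from -0.01 to 0.42, 0.20 and 0.33, under median-of-ratios scaling, a common sum that leaves out mitochondrial genes and the 20 most abundant, and quantile normalisation. Median-of-ratios scaling moved the median of all features from -0.36 to -0.02. Over the fits that left out 1 library each, members past the threshold ran from 0 to 1 higher and from 0 to 4 lower, and pathway list members from 0 to 20 lower, in each case above 0 only without radiotherapy replicate 3. All features ran from 0 to 236 higher and from 0 to 3298 lower in these fits. The log2 change ran from -0.27 to 0.67 for Capn3, -0.36 to 0.22 for Capns1, -0.50 to 0.51 for Ctsb, and -1.24 to 0.13 for Ctss. It stayed below 0 for Capn1, Capn2, Cast, Ctsd and Ctsl but came nearer to 0 without radiotherapy replicate 1 or 2, at -0.37 or -0.36 for Capn2, -0.28 or -0.11 for Cast, -0.51 or -0.44 for Ctsd and -0.77 or -0.95 for Ctsl. That of Capn1 was -0.053 without control replicate 1 and -0.070 without radiotherapy replicate 2. The log2 ratio of Cast to Capn1 and Capn2 ran from -1.0 to 0.061, and that of Capn3 to Capn1 and Capn2 from -0.018 to 1.41.

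All features past the threshold, 5 higher and 2 lower as reported, were 5 lower with a pseudocount of 0.1, 1 lower with a minimum mean of 5 TPM, 0 and 0 with no filter, 3 and 1 with median-of-ratios scaling and with quantile normalisation, 4 lower with the common sum, and 0 lower with the replicate block, which gave 4 higher. The cause was not tested. Depth is unknown, so no limit of detection is given for Ctsk or other low genes.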
